A study of Pinus pinaster with 30 samples.

Results

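A set of 137 array spots was lower in the early cotyledonary and cotyledonary embryos of maritime pine (*Pinus pinaster*) than in early and in mature embryos, the ends of the harvest series. Pre-cotyledonary embryos (Day5) played no part in the choice, and 30 members had their lowest mean on that day. The members were chosen from the measured values themselves. In the authors' normalized log2 ratios, technical replicates were averaged, then the 3 samples of each day, and a spot entered the set where the mean of its Day11 and Day15 levels lay at least 0.5 below its Day0 level and at least 0.5 below its Day25 level. A log2 difference of 0.5 is a 1.41-fold difference. Of the 26496 spots of the array, 14380 were measured in 2 or more samples of each day, and the 137 members are 0.953% of these. One further spot that met both limits was left out by the rule. Because the Day0, Day11, Day15 and Day25 levels chose the members, they are given below as a description with no test. The mean of the Day11 and Day15 levels is called the trough level.

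Each sample was a pool of 60 dominant zygotic embryos taken from seeds of open-pollinated plus trees in a clonal orchard. The groups were early embryos (Day0, stages T0 to T2), pre-cotyledonary embryos (Day5, T3 and T4), early cotyledonary embryos (Day11, T4B), cotyledonary embryos (Day15, T5) and mature embryos (Day25, T7). Every day had 3 such pools as biological samples, run on 2 arrays apiece against a reference pool of RNA from all samples of all 5 days. Embryo RNA carried Cy3 and the pool Cy5 on all 30 arrays with no dye swap, so that 0 on the log2 scale is the level of the pool as this array measures it. The array carries cDNA clones of loblolly pine (*P. taeda*) roots and needles, and none from embryos. A day differs from another in harvest date as well as in stage, and several Day0 and Day5 stages share a pool. In whole embryos a lower ratio can mean fewer cells that hold a transcript or less of it per cell, and these cannot be told apart.

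A conifer embryo passes from a dividing mass with suspensor tissue to an embryo with meristems and a ring of cotyledons, and then matures while the megagametophyte around it stores reserves. Early growth draws on cell division, loosening of walls and defence-type secreted proteins. Maturation prepares for drying and germination, with chaperones, membrane-protecting proteins, signalling by calcium and abscisic acid, and, in conifers, a chloroplast programme that can run in the dark. Genes named below carry the descriptions that the study's supplementary tables give to their pine unigene or closest *A. thaliana* locus, so each name is a similarity and not a proof of function. A description was found for 34 members, and 103 had none. Those tables were used here in part and favour spots that changed, and 10.7% of all tested spots were described against 24.8% of the members.

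**Figure D1:**
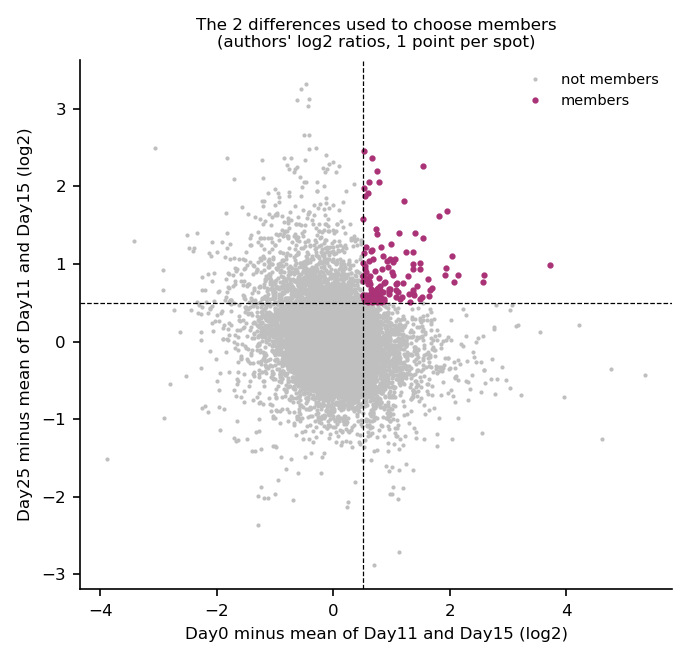
Each point is 1 of the spots that the authors' ratios cover in 2 or more samples of each day. The x axis gives the Day0 level minus the trough level and the y axis the Day25 level minus the trough level, both in log2 units of the authors' ratios, with dashed lines at 0.5. The 137 members fill the upper right corner, 1728 spots lie past the Day0 limit only and 1329 past the Day25 limit only.

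Most members lay close to the limits. The smaller of the 2 differences had a median of 0.626 over the members and reached 1.68, with 57 members under 0.6, 67 from 0.6 to under 1, and 13 at 1 or more. Just inside the limit were spot 4.2.9.15 (0.502), which has no description, spot 2.2.22.11 (0.503), whose closest locus is AT5G67140, and a DnaJ heat shock family spot, 4.1.21.22 (0.504). Just outside were the undescribed spot 3.4.5.5 (0.5 after rounding), a YELLOW STRIPE-like 7 metal-nicotianamine transporter, 12.3.21.2 (0.5 after rounding), and a universal stress protein, 12.4.23.3 (0.497). Of the 14380 spots measured in 2 or more samples of each day, 1865 were past the Day0 limit and 1466 past the Day25 limit. The members were 7.35% of the former and 9.35% of the latter. These shares are to be read beside those counts over all 14380 spots, and no link between the 2 limits is read from them. The mirror pattern, with both ends at least 0.5 below the middle, was met by 152 spots.

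All levels that follow were computed from the deposited intensities, with a standard error (SE) from 1 fit of all samples or an SD between biological samples. On these values 132 of the 137 members met both limits again. The median level over the members was 0.42 on Day0, -0.34 on Day5, -0.56 on Day11, -0.41 on Day15 and 0.37 on Day25. Over all 14513 tested spots the median stayed between 0.01 and 0.03 on every day. The members' median was 0.80 above the trough level on Day0 and 0.75 above it on Day25, and the widest differences were 3.70 on Day0 and 2.45 on Day25. On Day0 123 members lay above the pool, on Day11 9 and on Day15 11, and on Day25 111. The lowest day mean fell on Day11 in 76 members, on Day15 in 31 and on Day5 in 30.

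**Figure D2:**
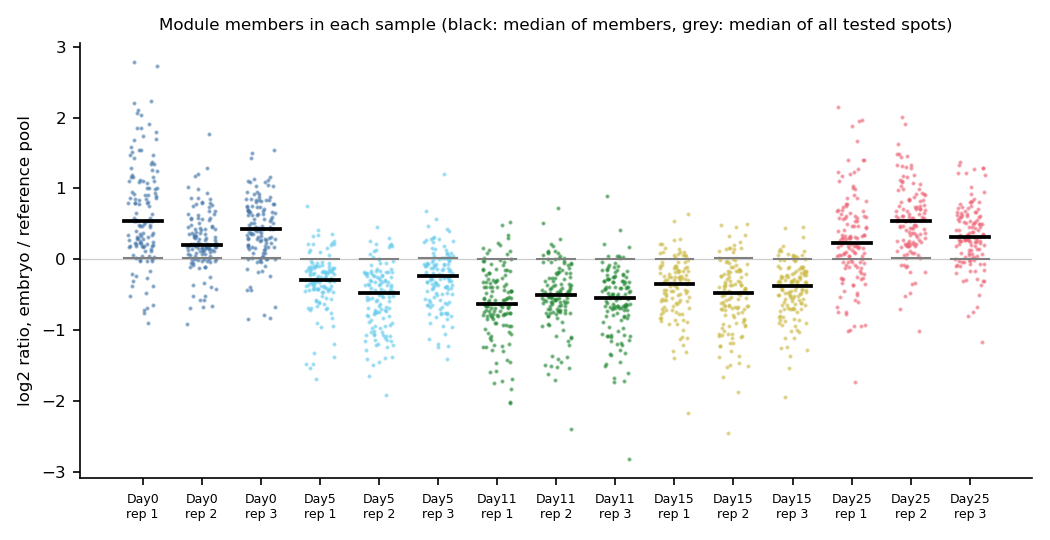
Log2 ratio of embryo over reference pool (y axis) for every member in each of the 15 samples (x axis), 1 point per member. The black bar is the median of the members and the grey bar the median of all tested spots. The members' medians run from 0.20 to 0.54 in the Day0 samples, from -0.63 to -0.34 in the Day11 and Day15 samples and from 0.23 to 0.54 in the Day25 samples.

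In 82 members (59.9%) every Day0 and Day25 sample lay above every Day11 and Day15 sample, and in 55 the samples of the ends and of the middle overlapped. Over all tested spots 255 (1.76%) had such a separation, but the choice of members used these differences and nothing is read from the count. Samples of a day were not equally far from the trough. On Day0 the members' median was 0.54 in replicate 1, 0.20 in replicate 2 and 0.43 in replicate 3. Of the 105 members with a value in all 3 Day0 samples, 62 were highest in replicate 1 and 59 lowest in replicate 2. The median SD between samples was 0.33 on Day0 and 0.26 on Day25, against 0.16 on Day11 and 0.21 on Day15. Over all tested spots it was 0.19 on Day0 and 0.17 on Day25.

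The deepest trough of the members was that of a rubisco activase spot. Rubisco activase, which frees the active site of the carbon-fixing enzyme from inhibitory sugars, was met on 2 member spots of different unigenes. Spot 4.4.20.4 (unigene u17656) read 1.73 and 1.44 in the Day0 samples with a value, -0.30, -0.67 and -0.57 on Day5, -0.28 and -0.52 on Day11, -0.46 and -0.21 on Day15, and 1.24, 1.48 and 1.27 on Day25. All samples of the ends lay above all samples of the middle. This was 1.95 ± 0.16 (SE) above the trough on Day0, or 3.87-fold, and 1.70 ± 0.14 above it on Day25, or 3.24-fold. The other spot, 8.4.20.21 (u17036), read 1.85, 0.79 and 1.50 on Day0, -0.09, -0.05 and 0.69 on Day5, 0.09, -0.03 and -0.40 on Day11, -0.25, -0.41 and -0.12 on Day15, and 0.82, 1.31 and 1.34 on Day25. Its Day0 and Day25 levels were 1.57 ± 0.22 and 1.35 ± 0.22 above the trough. The pair differed most on Day5, where 4.4.20.4 was below the pool in all samples and 8.4.20.21 was not.

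A small chaperone of the DnaJ class, which helps Hsp70 bind unfolded proteins, was also met on 2 member spots of different unigenes that share the locus AT1G80920, J8 in *A. thaliana*. Spot 3.2.16.14 read 1.10, 0.93 and 0.95 on Day0, -0.66, -1.11 and -0.35 on Day5, -1.11, -0.93 and -0.89 on Day11, -1.20, -1.48 and -0.69 on Day15, and -0.36 and 0.46 in the Day25 samples with a value. It was 2.05 ± 0.20 above the trough on Day0 and 1.10 ± 0.24 on Day25. Spot 11.2.17.3, described as chloroplast DnaJ, read 0.29 and 0.58 on Day0, -0.63 and -0.92 on Day5, -0.81, -0.53 and -0.17 on Day11, -0.82, -1.05 and -0.12 on Day15, and 0.33, 0.98 and 0.76 on Day25. Here Day25 was 1.27 ± 0.21 and Day0 1.02 ± 0.24 above the trough. The other chaperone among the members, the DnaJ heat shock family spot 4.1.21.22, had a shallow trough above the pool level, with day means of 0.67 on Day0, 0.09 on Day11, 0.27 on Day15 and 1.03 on Day25, and its samples overlapped between the middle and the ends.

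**Figure D3:**
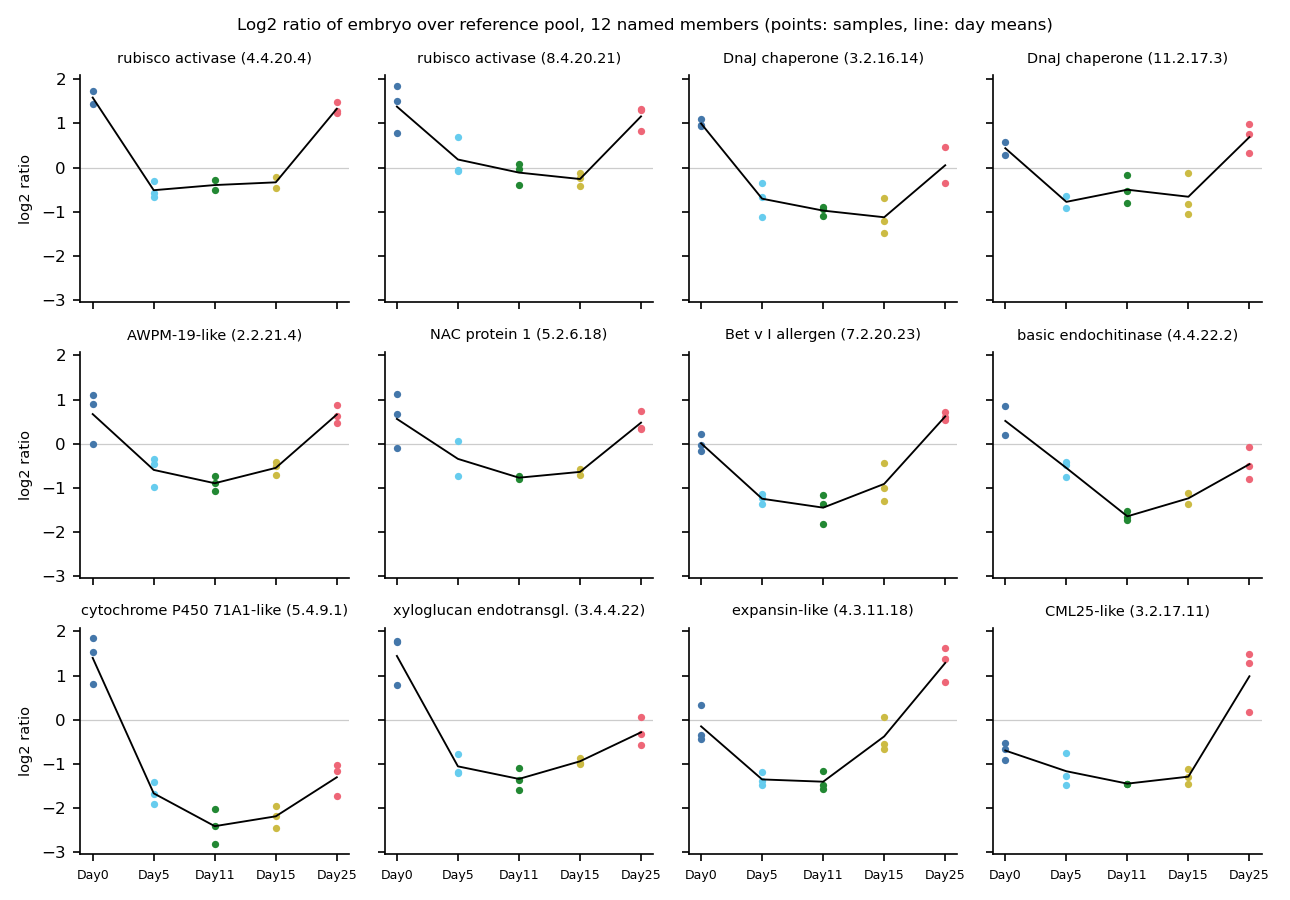
Log2 ratio of embryo over reference pool (y axis) on each day (x axis) for 12 named members, with 1 point per biological sample and a line through the day means. The rubisco activase spots return to 1.33 and 1.16 on Day25, close to their Day0 means of 1.58 and 1.38. The cytochrome P450 spot goes from 1.40 on Day0 to -1.30 on Day25, and the CML25-like spot from -0.70 to 0.99.

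Members with an early level above the mature level included several enzymes. Members of the cell wall and defence lists used below leaned both ways, with a xyloglucan endotransglycosylase and a chitinase higher on Day0 and the expansin-like and Bet v I allergen spots higher on Day25. The cytochrome P450 71A1-like spot 5.4.9.1, of a family of oxidases of plant secondary metabolism, had the widest range of any member. It read 1.85, 0.81 and 1.54 on Day0, -1.68, -1.91 and -1.40 on Day5, -2.03, -2.39 and -2.81 on Day11, -2.17, -2.44 and -1.94 on Day15, and -1.73, -1.01 and -1.16 on Day25. Day0 was 3.70 ± 0.23 above the trough, which is 13-fold, while Day25 was 1.00 ± 0.23 above it and still below the pool in all samples. Xyloglucan endotransglycosylase (3.4.4.22), which cuts and rejoins hemicellulose chains, read 1.79, 1.77 and 0.78 on Day0, -1.58, -1.08 and -1.35 on Day11, -0.86, -0.97 and -0.99 on Day15, and -0.57, -0.33 and 0.06 on Day25. It was 2.59 ± 0.21 above the trough on Day0 and 0.86 ± 0.21 on Day25.

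The peroxidase spot 8.1.7.15, of an enzyme class that acts on phenols and lignin precursors in the wall, was 2.10 ± 0.30 above the trough on Day0 and 0.85 ± 0.30 on Day25. A basic endochitinase (4.4.22.2), an enzyme that cleaves chitin, read 0.19 and 0.84 on Day0, -1.73, -1.53 and -1.67 on Day11, -1.11 and -1.37 on Day15, and -0.08, -0.52 and -0.80 on Day25. Acid phosphatase 1-like (12.2.8.15) read 0.77 and 0.63 on Day0, -1.51 and -1.27 on Day11, -1.12 and -0.93 on Day15, and -0.74 and 0.00 on Day25. The phosphatase had only 2 samples on every day. In these 5 spots the Day25 minus Day0 difference was between -2.70 and -0.98, and the Day0 and Day25 samples stood clear of the middle.

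Members of opposite lean, with a mature level above the early level, included signalling proteins. The calcium sensor CML25, a calmodulin-like protein with EF hands, was met on 2 member spots of different unigenes. Spot 3.2.17.11 read -0.52, -0.90 and -0.66 on Day0, -1.47, -1.28 and -0.75 on Day5, -1.45 and -1.45 on Day11, -1.30, -1.46 and -1.11 on Day15, and 0.17, 1.49 and 1.29 on Day25. Its Day25 level was 2.35 ± 0.25 above the trough, 5.11-fold, and its Day0 level 0.67 ± 0.25 above it. Spot 11.1.23.9 read -0.37, -0.57 and -0.38 on Day0, -1.29 and -1.20 on Day11, -0.77, -1.05 and -0.94 on Day15, and 0.18, 1.29 and 1.29 on Day25. Both spots were lowest of the Day25 samples in replicate 1.

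The expansin-like spot 4.3.11.18, of a family related to wall-loosening expansins, read 0.34, -0.35 and -0.43 on Day0, -1.47, -1.39 and -1.19 on Day5, -1.57, -1.16 and -1.48 on Day11, 0.07, -0.65 and -0.55 on Day15, and 0.86, 1.63 and 1.37 on Day25. Its Day15 samples reached into the Day0 range. A zinc finger protein (9.1.11.14) had the widest Day25 difference of the members, 2.45 ± 0.19, with a Day0 difference of 0.53 ± 0.22. A mitochondrial carnitine/acylcarnitine carrier-like protein (9.1.17.1), of a family that moves metabolites across the inner membrane, was 1.58 ± 0.25 above the trough on Day25 and 0.51 ± 0.29 on Day0. The Bet v I allergen spot 7.2.20.23, closest to an MLP-like protein and of a family of small ligand-binding proteins, read 0.23, -0.03 and -0.18 on Day0, -1.38, -1.13 and -1.23 on Day5, -1.83, -1.37 and -1.15 on Day11, -0.44, -1.29 and -1.0 on Day15, and 0.55, 0.71 and 0.59 on Day25.

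A further group had nearly equal ends. The tyrosine aminotransferase family spot 8.1.16.13, of an enzyme at the entry to tocopherol synthesis and tyrosine breakdown, read 1.69, 0.33 and 0.73 on Day0, -0.57, -0.53 and -0.48 on Day5, -0.90, -0.72 and -0.97 on Day11, -0.71, -0.83 and -0.80 on Day15, and 0.90, 0.94 and 0.55 on Day25. The AWPM-19-like plasma membrane protein (2.2.21.4), of a family linked in cereals to abscisic acid and freezing tolerance, read 0.89, 0.00 and 1.11 on Day0, -0.45, -0.97 and -0.36 on Day5, -0.74, -0.89 and -1.07 on Day11, -0.71, -0.51 and -0.43 on Day15, and 0.48, 0.89 and 0.62 on Day25. Its ends were 1.39 ± 0.21 and 1.38 ± 0.21 above the trough, although Day0 replicate 2 stood apart from the other two early samples.

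UDP-glucose 4-epimerase (9.1.14.10), which interconverts the sugar donors for galactose in walls and lipids, read 1.37, 0.68 and 0.74 on Day0, -0.02, -0.78 and -0.63 on Day5, -0.53 and -0.48 on Day11, -0.36, -0.39 and -0.27 on Day15, and 0.70, 0.83 and 0.65 on Day25. NAC protein 1 (5.2.6.18), a transcription factor closest to ATAF1, which responds to stress and abscisic acid in *A. thaliana*, read 1.12, -0.11 and 0.67 on Day0, -0.74 and 0.05 on Day5, -0.80 and -0.74 on Day11, -0.57 and -0.70 on Day15, and 0.34, 0.74 and 0.34 on Day25. Its Day0 samples spread widely (SD 0.62, n = 3), with replicate 2 nearest to the trough.

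Further named members were a GTPase, a lipase, a lipid droplet protein, a permease and an F-box protein. The small GTPase closest to ARA7 (6.2.23.10), a Rab of the endosome, was 1.50 ± 0.18 above the trough on Day0 and 0.96 ± 0.15 on Day25. An esterase/lipase family spot (2.2.13.16) was 1.71 ± 0.14 above it on Day0 and 0.67 ± 0.14 on Day25, with Day25 samples of -0.11, -0.08 and -0.02. A rubber elongation factor family spot (5.1.22.19), of proteins found on lipid droplets, had differences of 0.89 ± 0.17 and 1.01 ± 0.17 at the 2 ends. Purine permease 1 (9.1.2.23), which carries adenine and cytokinins in *A. thaliana*, leaned to Day25 with 1.15 ± 0.13 against 0.68 ± 0.13. An F-box and kelch repeat protein (5.1.15.1), of a class that marks proteins for breakdown, likewise had 1.44 ± 0.23 on Day25 against 0.69 ± 0.23.

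The zinc transporter ZIP1 (6.4.3.11), the acidic ribosomal protein P3 (1.2.19.4) and the phosphate starvation-induced gene 2 (6.4.15.21) had Day25 differences of 0.57 ± 0.17, 0.62 ± 0.14 and 0.62 ± 0.18, close to the limit. Spot 4.1.14.3 matched 2 unigenes, an IQ-domain protein and a sorbitol dehydrogenase, and which of them it measured is not known. The other 6 described members fall outside the rule for named genes and are listed for completeness after their values were seen. They are the CML25 spot 11.1.23.9 described above, a BRI1-like 2 receptor kinase (9.3.9.4), the calmodulin-binding kinase CRCK2 (7.2.18.10), glycerol kinase (7.2.4.12), a topless-related corepressor (3.2.22.6) and a cysteine-rich receptor-like kinase (5.2.16.20). Of these, glycerol kinase, the enzyme that phosphorylates glycerol from fats, leaned to Day0 (0.85 against -0.10 on Day25). The other 4 of them leaned to Day25, with Day25 means between 0.62 and 1.44 and Day0 means between -0.80 and 0.12.

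Over all members the Day25 mean was within 0.5 of the Day0 mean in 96, at least 0.5 below it in 25 and at least 0.5 above it in 16. Described members made up 13 of the 96, 10 of the 25 and 11 of the 16. The Day25 minus Day0 difference ran from -2.70 in the cytochrome P450 spot 5.4.9.1 to 1.92 in the zinc finger spot 9.1.11.14.

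Day5, which the rule did not use, was tested against the pool level of 0. The pre-cotyledonary level was significantly below the pool in 53 of the 137 members (38.7%) and above it in none, with limma and Benjamini-Hochberg adjustment over all tested spots at 0.05. Over all tested spots 19.7% passed, 9.32% below and 10.4% above the pool. By level alone, 114 members lay below the pool on Day5 (83.2%, against 47.8% of all tested spots), and in 94 all Day5 samples with a value did. The pool holds RNA of all 5 days, so a spot that is high on Day0 and Day25 lowers its own ratio on the other days, and without a dye swap a lasting dye effect of a spot enters the same ratio. The mean of the 5 day ratios on the linear scale had a median of 0.98 over the members and 1.02 over all tested spots.

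**Figure D4:**
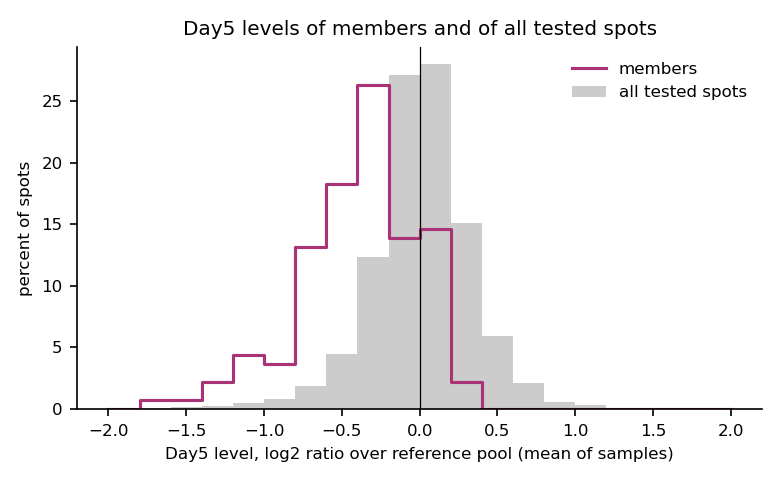
Share of spots (y axis, percent) by Day5 level (x axis, log2 ratio over the reference pool, mean of the Day5 samples, bins of 0.2). Grey bars are all 14513 tested spots and the purple line the 137 members, whose median is -0.34.

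The lowest Day5 levels of described members were those of the cytochrome P450 5.4.9.1 (-1.67 ± 0.19 SE, adjusted p = 0.000101 with limma), the expansin-like spot 4.3.11.18 (-1.35 ± 0.17, adjusted p = 0.000164), the zinc finger spot 9.1.11.14 (-1.26 ± 0.19 over 2 samples, adjusted p = 0.00103), the Bet v I allergen 7.2.20.23 (-1.25 ± 0.14, adjusted p = 0.000107) and the CML25 spot 3.2.17.11 (-1.16 ± 0.19, adjusted p = 0.00145). The described members with the highest Day5 levels were not separated from the pool. The rubisco activase spot 8.4.20.21 stood at 0.18 ± 0.18 (limma adjusted p = 0.514), the IQ-domain spot 4.1.14.3 at 0.15 ± 0.15 (0.498), the DnaJ heat shock spot 4.1.21.22 at 0.01 ± 0.18 (0.976), the ribosomal protein P3 at -0.13 ± 0.11 (0.439) and the phosphate starvation-induced gene at -0.19 ± 0.14 (0.356). Of the 34 described members 22 passed the Day5 test (64.7%), and of the other 103 members 31 (30.1%). Of the 1512 tested spots that are described and not members 306 were below the pool by this test (20.2%). Descriptions come mainly from tables that favour spots that changed on these same arrays, so nothing is read from shares of described against undescribed spots.

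The count rested on Day5 replicate 2. Its median over the members was -0.47, against -0.29 in replicate 1 and -0.24 in replicate 3, and it was the lowest in 58 of the 109 members with a value in all Day5 samples. Without this sample 12 members passed, while 27 passed without replicate 3 and 40 without replicate 1, and the shares below the pool over all tested spots were then 3.28%, 3.84% and 8.23%. In 11 members the call held under every alternative in which they were tested. For 3 of them, the acid phosphatase and zinc finger spots among them, only 2 Day5 samples had a value, so that leaving one out left a single Day5 sample judged by the spread of the other days. Described ones among these were the Bet v I allergen, cytochrome P450, acid phosphatase, xyloglucan endotransglycosylase, expansin-like, esterase/lipase, purine permease, CML25 (3.2.17.11) and zinc finger spots. The adjusted p of the rubber elongation factor spot was 0.0503 with limma and passed under several alternatives.

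The step from Day0 to Day5 was most of the way to the trough. The median member had 89.4% of its Day0 to trough difference present on Day5, and 121 members had at least 50% of it. In 44 members the Day5 mean was below the trough level. These shares use the Day0, Day11 and Day15 values of the rule and carry no test. For comparison, the spots past the Day0 limit only had a median of 58.4% on Day5. Their Day5 median was 0.08, with 5.03% below the pool and 12.3% above it, while spots past the Day25 limit only had a Day5 median of -0.40, with 49.8% below the pool. The members lay between them, and the differences between these sets were not tested.

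In 16 members less than 50% of the difference was present on Day5. Described ones were the ribosomal protein P3 (47.8%), CML25 spot 11.1.23.9 (43.6%), the cysteine-rich receptor-like kinase (42.7%) and the IQ-domain spot (37.3%). Only 3 members, all undescribed, were highest on Day5. Spot 10.1.14.9 stood at -0.18 on Day0, 0.27 on Day5, -1.10 on Day11, -1.44 on Day15 and -0.26 on Day25. Spots 3.2.10.15 and 12.4.21.19 stood at 0.15 and 0.28 on Day5.

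Early cotyledonary and cotyledonary embryos were compared by Day15 minus Day11, since the rule used only their mean. No member passed the test (limma, adjusted p under 0.05, lowest adjusted p 0.413), and 0 of the 14513 tested spots did (percent called 0). At an unadjusted p under 0.05 there were 10 members (7.3%) and 857 of all tested spots (5.91%). The median difference over the members was 0.15, and 97 of 137 were higher on Day15 (70.8%, against 50% of all tested spots). In 33 members (24.1%) all Day15 samples lay above all Day11 samples, against 9.54% of all tested spots, and in 1 member all lay below, against 7.59%. Among spots past the Day25 limit only, 88.6% were higher on Day15, and among those past the Day0 limit only 32.3%.

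The widest difference was in the expansin-like spot 4.3.11.18, 1.03 ± 0.24 higher on Day15 (limma adjusted p = 0.413), where all Day15 samples (0.07, -0.65 and -0.55) lay above all Day11 samples. With 30 arrays and an estimated correlation of technical replicates it passed, with an adjusted p of 0.0485, as the only member. Its adjusted p was above 0.05 under every other alternative. The cysteine-rich receptor-like kinase (0.58 ± 0.34), the zinc finger spot (0.56 ± 0.24) and the Bet v I allergen (0.54 ± 0.20) had the next differences among described members, with adjusted p of 0.872, 0.817 and 0.77.

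Other spots that share a unigene or an *A. thaliana* locus with a described member were compared with it. Rubisco activase, the J8 chaperone and CML25 each had 2 member spots. Leaving members out, 29 such spots were tested, and these met at most 1 of the limits on the values computed here, which their being left out of the members all but fixed. Of the 7 that share a unigene, 2 met the Day0 limit alone, 4 the Day25 limit alone and 1 neither. Of the 22 that share only the locus, 14 met the Day0 limit alone, 4 the Day25 limit alone and 4 neither. A further 19 such spots had too few values to be tested, and 4 of these met both limits on the means of the samples they had, 3 of them of the same unigene as a member. All of this is a description. Spots of 1 locus can be different genes of a family, and cDNA spots can cross-hybridize.

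**Figure D5:**
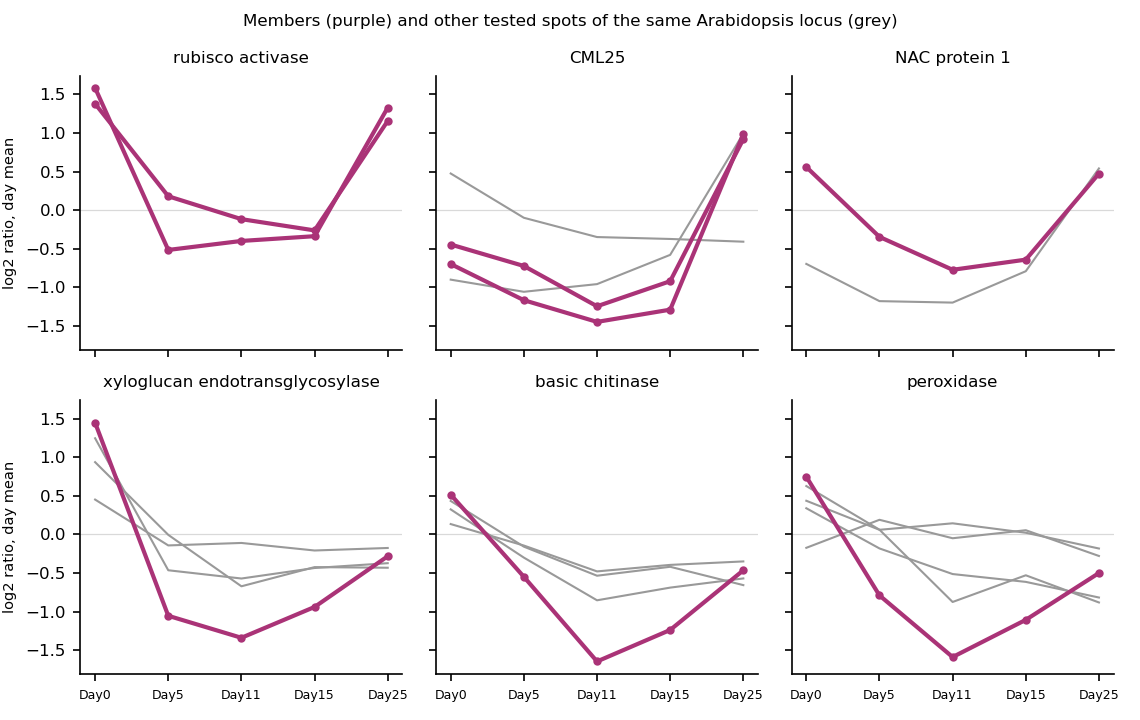
Day means of the log2 ratio (y axis) over the 5 days (x axis) for members, in purple, and for other tested spots whose closest *A. thaliana* locus is the same, in grey, in 6 gene families. The other NAC protein 1 spot stands at -0.69 on Day0 and 0.54 on Day25. On Day25 the other xyloglucan endotransglycosylase and chitinase spots differ from their trough level by -0.18 to 0.20. The Day25 means of these spots and of the members of both families are below the pool.

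The other tested NAC protein 1 spot of the same unigene, 3.2.1.2, had day means of -0.69, -1.18, -1.20, -0.79 and 0.54, so that its Day0 level was 0.30 above the trough and its Day25 level 1.53. The other expansin-like spot of the same unigene, 9.2.18.12, was 0.11 and 1.22 above the trough at the 2 ends. Spot 3.1.10.21, of the same unigene as the zinc finger member 9.1.11.14, ran otherwise, with day means of -1.31, -0.43, 0.24, 0.57 and 0.52. It differed from the trough level by -1.71 on Day0 and 0.11 on Day25. Spot 3.4.21.2, which shares a unigene with the rubber elongation factor member, differed by -0.53 on Day0 and 2.17 on Day25. It is itself described as a cyclophilin (peptidyl-prolyl isomerase), so whether these 2 spots measure the same gene is not known. Another CML25 spot, 5.3.5.9, differed from the trough by -0.13 on Day0 and was 1.76 above it on Day25. Spot 3.2.12.14, of the same locus as the IQ-domain spot 4.1.14.3, differed by -2.40 on Day0 and 0.40 on Day25. Spot 1.1.15.20, of the locus of the DnaJ heat shock member, differed by -0.50 on Day0 and 0.60 on Day25. The untested spot 2.1.2.1, of the locus of the tyrosine aminotransferase member, differed by -1.44 on Day0 and, from 1 Day25 sample, by -0.10 on Day25. The 3 tested xyloglucan endotransglycosylase spots of the locus were 0.61 to 1.75 above the trough on Day0 and within 0.13 of it on Day25. The untested spots that met both limits were a second rubisco activase spot of unigene u17656, 7.4.20.3, with means of 0.97 on Day0, -0.57 on Day11, -0.75 on Day15 and 0.16 on Day25, a second ARA7-like spot, 8.4.7.11, which was 1.38 and 1.08 above the trough at the 2 ends, an expansin-like spot, 6.3.15.6, at 0.58 and 1.21, and a peroxidase spot of the same locus as 8.1.7.15, 10.1.1.10, at 0.85 and 1.45. Only 1 sample gave the Day25 level of 7.4.20.3, the Day15 level of 8.4.7.11, and each of these levels of 10.1.1.10. Tested peroxidase spots of that locus differed from the trough level by -0.18 to 1.33 on Day0 and by -0.28 to -0.18 on Day25.

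Gene lists defined by search words in the descriptions gave the levels of other genes of the same classes. Because the Day0 and Day25 differences chose the members, the members were left out of these counts, all with limma at an adjusted p under 0.05. The lists hold described spots only, so they are read against the 1512 described spots that are not members, of which 32.7% were higher and 36.6% lower on Day0 than in the trough, and 19.3% higher and 13.4% lower on Day25. Over all 14513 tested spots, members included, the shares were 17.4% and 17.3% on Day0, and 12.4% and 10.2% on Day25.

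Of 22 other photosynthesis spots 8 were higher and 10 lower on Day0, and 5 higher and 0 lower on Day25. Of 42 other chaperone spots 7 were higher and 21 lower on Day0, and 17 higher and 2 lower on Day25. Defence-related proteins had 30 higher and 5 lower of 48 on Day0, with 6 and 5 on Day25, and cell wall proteins 39 and 10 of 70 on Day0, with 14 and 9 on Day25. The defence list counts the xyloglucan endotransglycosylase spots only because letters of their names match a search word. Its counts, on Day5 as well, are therefore not those of defence proteins alone. The list shares spots with the cell wall list, and its counts without these wall enzymes were not made.

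For transcription regulators 10 of 67 were higher and 39 lower on Day0, with 13 higher and 11 lower on Day25. Redox enzymes had 23 higher and 19 lower of 66 on Day0, transporters 20 and 21 of 53, sugar and starch enzymes 10 and 17 of 48, and lipid enzymes and carriers 19 and 23 of 67. On Day25 these 4 lists had 20 and 5, 6 and 9, 11 and 5, and 11 and 7. Hormone-related genes (37 tested), chromatin, DNA methylation and replication (13) and flavonoid, phenylpropanoid and terpene enzymes (35) held no member. Members were 2.2% of all 1547 described spots tested, so nothing is read from their absence in lists of this size. No list had a spot past the Day15 minus Day11 test. On Day5, 306 of the 1512 described spots that are not members were below the pool (20.2%) and 137 above it (9.06%). The counts below and above the pool were 14 and 3 for the other chaperones, 9 and 3 for photosynthesis, 9 and 2 for defence-related proteins, and 20 and 3 for cell wall proteins. Median Day5 levels were -0.10, -0.06, -0.14 and -0.18 in these lists, against -0.07 over the described spots that are not members and 0.01 over all tested spots. The late embryogenesis, storage and oil body list had 7 below and 0 above of 15 (median -0.47). Flavonoid, phenylpropanoid and terpene enzymes had 16 and 0 of 35 (median -0.32). Redox enzymes had 18 and 1, transcription regulators 17 and 6, lipid enzymes and carriers 10 and 4, and hormone-related genes 9 and 1. Sugar and starch enzymes had 7 and 4, transporters 6 and 10, and the chromatin list 1 and 2. The share below the pool was under the 20.2% of described spots for defence-related proteins (18.8%), lipid enzymes and carriers (14.9%), sugar and starch enzymes (14.6%), transporters (11.3%) and the chromatin list (7.69%). In the other lists it was 24.3% to 46.7%. No list was tested against the described spots.

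Proteins of late embryogenesis, storage and oil bodies are shared with the megagametophyte, from which the embryos were dissected. Of the 15 tested spots of this list that are not members 6 were higher and 9 lower on Day0 than in the trough, and 3 higher and 0 lower on Day25. The mean log2 ratio of the list per sample, over all 16 tested spots, was between -0.40 and -0.15 on Day0, between -0.66 and -0.38 on Day5, between -0.48 and -0.40 on Day11, between -0.27 and -0.10 on Day15 and between -0.05 and 0.14 on Day25. Only the AWPM-19-like spot of this list is a member. The part of megagametophyte RNA in the levels of the members was not tested.

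Brightness and place on the slide were also compared. The members' median brightness was 10.8 on the log2 scale against 11.0 for all tested spots, with 25 members under the lower quartile and 17 above the upper quartile. They were kept on a median of 23 of the 30 arrays, against 22 for all tested spots, and 58 of them had a value in all 15 samples. They lay in 43 of the 48 print-tip blocks, with at most 8 in a block. A neighbouring spot was also a member for 13 of them, among them the IQ-domain spot 4.1.14.3 and CRCK2. Members were 0.944% of tested spots, but how many such neighbours to expect was not computed. An effect of place on the slide was not tested. Without these 13 the medians were 0.42, -0.35, -0.55, -0.42 and 0.39 from Day0 to Day25.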

How the data were processed

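Zygotic embryos of *P. pinaster* were hybridized at 5 harvests with 3 biological samples of 2 technical replicate arrays each. The authors deposited spot and background intensities of both channels with quality marks, and log2 ratios of embryo over reference pool that the authors had normalized with print-tip loess and cyclic loess. RNA was amplified before labelling. Members were chosen on the authors' log2 ratios. Tested levels started from the intensities and used limma 3.58.1 under R 4.3.3: no background correction, print-tip loess (48 tips, span 0.3, 4 iterations), cyclic loess over both channels (3 iterations), spots with both quality marks only (41% to 70.5% per array), technical replicates averaged. The 14513 spots measured in 2 or more samples of each day entered 1 limma fit of day means, with Benjamini-Hochberg adjustment over all of them at 0.05. The test scripts were tested on simulated data. Standard errors are those of the fit. For the members, differences that the rule used carry no test. List counts on those differences leave the members out.

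The members, lists and tests were chosen with earlier results of these data known. Named genes are described members: the 20 with the deepest trough, up to 4 per list, the 5 highest and 5 lowest on Day5, any past the Day15 minus Day11 test, and the 3 spots on either side of the limit. No member spot is in the study's tables of epigenetic regulators or transcription factors, although the NAC protein 1 member shares its unigene with a spot that is. The paper reports that cones were taken from 3 to 5 trees at each harvest date. Whether pools of a day, or different days, shared trees was not given in the sources used here, so p-values measure the spread between these pools. The number of arrays limits the precision. Alternatives covered the processing steps, the filters, the authors' ratios, a replicate block and each sample left out. Supplementary tables also hold the authors' fold changes and p-values, which were not used. Clone sequences and genome positions were not used here.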

Additional observations from a re-analysis of the deposited data

How the results depend on the processing

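The number of spots that met the rule was 137 in the authors' ratios and 121 to 166 with 1 sample left out, with at least 108 of the members among them. On values computed here it was 143 (132 shared), and 269 with no quality filter (110 shared). It was 58 where values in all 3 samples of every day were required, and 232, 80 and 13 at limits of 0.4, 0.6 and 1. Further alternatives were chosen after seeing the data. With technical replicate 1 alone 79 spots met the rule, 62 of them members (45.3% of the members). With technical replicate 2 alone 67 did, 48 of them members (35%). With Day11 alone in the middle 206 did, 127 of them members. Membership thus depends on these choices, and most members did not meet the rule again on 1 array per sample. Members below the pool on Day5 numbered 53, 24 where all samples were required (of 58 tested), and 12 to 59 with 1 sample left out. The lowest was without Day5 replicate 2, and 27 passed without Day5 replicate 3. Day15 minus Day11 had 0 members, 0 with any 1 sample left out and 1 with an estimated technical correlation of 0.66. Over the gene lists, members included, and 4 contrasts 747 calls were made, 1162 with no quality filter, 307 where all samples were required and 631 to 771 with 1 sample left out. No named member changed direction where it passed a test. The replicate numbers do not pair the samples by the labels, and deviations of same-numbered samples correlated from -0.38 to 0.49, with 5 of 15 samples closest to their own number. With a replicate block the counts were 56 members on Day5, 0 for Day15 minus Day11 and 753 over the lists. Spots with values in fewer samples have larger standard errors.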
